A study of Mus musculus with 12 samples.

Results

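The 80 genes described here encode proteins of the cytosolic ribosome. They were chosen by symbol alone, as the genes of the count table named Rpl or Rps with a number and at most one of the letters a, l, x or y, together with Rplp0, Rplp1, Rplp2 and Rpsa, and without the S6 kinase genes named Rps6k. They are 80 of the 12960 genes listed, 48 of the large (60S) and 32 of the small (40S) subunit by their symbols. In the GENCODE annotation 78 are protein coding, and Rpl32l and Rps4l are processed pseudogenes. A total of 78 passed the filter on low counts, 46 of the large and 32 of the small subunit. The members left out by it were Rpl32l, with 0 to 1 counts in a library, and Rpl39l, with 0 to 3 counts.

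Each cytosolic ribosome holds one copy of most of these proteins, with several copies of the stalk proteins P1 and P2, and a cell makes the set in step with ribosomal RNA. Many of their mRNAs start with a short run of pyrimidines, the 5′ terminal oligopyrimidine (TOP) motif, through which mTORC1 and the RNA-binding protein LARP1 control their translation and stability. AMPK, the energy sensor activated in these experiments, is known to restrain mTORC1, and ribosome production is one of the large energy costs of a cell.

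The libraries came from bone marrow-derived macrophages (BMDMs), cells grown out of mouse marrow in the macrophage growth factor of L929-conditioned medium before they were plated again. WT mice and mice that lack the β1 subunit of AMPK in the whole body (AMPKβ1-/-) gave the cells, which were kept for 6 h with vehicle (DMSO, 0.1%) or with 10 μM PF-06409577 (PF), an activator of AMPK complexes that contain β1. Each of the 4 groups, WT vehicle, WT PF, AMPKβ1-/- vehicle and AMPKβ1-/- PF, had 3 libraries, numbered 1 to 3 in the count table. No source used here says whether the libraries of a group came from separate animals or dishes, so the p-values measure the spread between these libraries, and a genotype cannot be told apart from the mice or the order of preparation that came with it.

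Library totals ran from 8935609 to 14358180 counts, and the counts per gene are estimates by Salmon that the authors deposited as whole numbers. Prkab1, the gene deleted in the knockout, had 37.3 to 45.3 CPM (counts per 1e6 counts, scaled by TMM) in the 6 WT libraries and 6.05 to 9.42 CPM in the 6 AMPKβ1-/- libraries. All 12 macrophage markers looked up were detected, with summed levels of 26836 to 31253 CPM over the 12 libraries. Of the 12, 3 rose and 5 fell (25% and 41.7%) between the genotypes with vehicle, beside 29.7% and 30% of all tested genes. Summed levels of markers of other cells were far lower. The listed granulocyte markers summed to 2.09 to 5.66 CPM, the fibroblast markers to 1.78 to 12.03 CPM and the erythroid marker Hba-a1 to 0 to 1.09 CPM. The lymphoid markers summed to 13.8 to 15.95 CPM in WT and 6.47 to 7.85 CPM in AMPKβ1-/- libraries, most of it Cd4, and its part in the results was not tested.

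The sequences around the annotated transcription starts are shown first, because the pyrimidine run is what these mRNAs are known for and because the choice by symbol did not use it. RefSeq promoters on GRCm38.p6 were matched for 59 of the 80 genes. A run of at least 6 C or T that reached within 5 bases of the start, on the strand of the gene, was present at an annotated start of 32 of the 59 (54.2%, exact 95% interval 40.8% to 67.3%), beside 23.98% of 27025 genes with a promoter and 24.7% of the tested genes. The letters CTTTC within 20 bases of the start, on the strand of the gene, were found in 32.2% of the members and 6.44% of all genes. In the lines below, 20 bases before and 20 bases from the start on are given 5′ to 3′, and capitals mark the run, or no base where none reached the start.
Rpl28, chr7:4792945-4792984, plus strand: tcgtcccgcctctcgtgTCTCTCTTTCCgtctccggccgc
Rpl35, chr2:39005112-39005151, minus strand: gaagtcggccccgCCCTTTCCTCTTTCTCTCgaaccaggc
Rpl4, chr9:64173367-64173406, plus strand: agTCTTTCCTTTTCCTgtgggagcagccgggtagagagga
Rps24, chr14:24490658-24490697, plus strand: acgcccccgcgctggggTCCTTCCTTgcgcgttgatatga
Rps6, chr4:86857348-86857387, minus strand: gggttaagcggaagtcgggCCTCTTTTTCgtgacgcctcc
Rps2, chr17:24720043-24720082, plus strand: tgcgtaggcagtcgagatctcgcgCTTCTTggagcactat
Rps10, chr17:27635225-27635264, minus strand: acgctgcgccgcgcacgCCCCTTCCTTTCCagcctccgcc
Rplp2, chr7:141447631-141447670, plus strand: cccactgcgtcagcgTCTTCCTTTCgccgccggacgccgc
Rpl5, chr5:107900508-107900547, plus strand: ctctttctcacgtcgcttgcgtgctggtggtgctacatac
Rps13, chr7:116334171-116334210, minus strand: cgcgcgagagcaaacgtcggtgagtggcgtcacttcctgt

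In these lines the run spans the start itself in Rpl28, Rpl35, Rps24, Rps6, Rps10 and Rplp2, ends before it in Rpl4 and begins after it in Rps2, and no base is marked for Rpl5 and Rps13. Rps24 is shown at one of its annotated starts. In the whole window of 250 bases before to 50 bases after the start, the letters CCGGAAG, on either strand, were found in 42.4% of the members, 9.93% of all genes and 22.01% of the tested genes. The letters AAGATGG, on either strand, were found in 15.3%, 7.28% and 8.93%. A match describes the letters in this window and is not a shown site of any factor. The members lie on 19 chromosomes, with 14 of the 80 on chromosome 7.

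Per kilobase of exon the members were among the most abundant mRNAs of these macrophages. Their median level over the 12 libraries was 438 CPM per kb, against 8.36 CPM per kb for the 10786 tested genes with an annotated length, and 28 of the 78 stood among the 100 highest genes and 68 among the 500 highest. The highest of the large subunit were Rplp1 (2327 CPM per kb), which encodes the stalk protein P1, Rpl19 (1564) and Rplp0 (1496), the base of the stalk. In the small subunit Rps14 (1181), Rps18 (1177) and Rps2 (1172) were highest, and their levels lay closer to each other than their spread over libraries, so this order is not resolved. At the other end were Rpl12 (12.95) and Rpl5 (5.27) of the large and Rps4l (11.8) and Rps27 (6.25) of the small subunit.

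The lowest values belong to proteins that every ribosome needs in one copy, apart from the pseudogene Rps4l. Rpl5, which carries the 5S ribosomal RNA into the large subunit, had 3.31 to 17.3 CPM in the 12 libraries, while Rpl11, its partner in the 5S particle, had 183 to 314 CPM. Many ribosomal protein genes have near-identical processed pseudogenes, and estimated counts can be split between such copies, so the levels and fold changes of the low members are uncertain. The members' exons were short, with a median of 969 bases against 3320 for all tested genes. The median GC content of their transcripts, 51.5%, was close to the 50.5% of all tested genes.

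Summed over the 80 genes, ribosomal proteins took 3.42% to 4.70% of the counts of a library. The share was 4.60%, 4.30% and 3.65% in WT vehicle libraries 1 to 3 and 4.40%, 4.70% and 4.30% in WT PF libraries 1 to 3. The AMPKβ1-/- libraries 1 to 3 had 3.61%, 3.65% and 3.71% (vehicle) and 3.48%, 3.64% and 3.42% (PF). The means were 4.18% ± 0.483 (SD, n = 3), 4.46% ± 0.207, 3.66% ± 0.0493 and 3.52% ± 0.112 in that order. Counting error was small beside this spread, with an exact binomial 95% interval of 4.58% to 4.61% for WT vehicle library 1, and such intervals cover counting error only. WT vehicle library 3 lay among the AMPKβ1-/- libraries, and every other WT library was above all 6 of them. In bulk RNA a lower share cannot be told apart from a higher content of other mRNAs, or from a change in the number of cells.

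**Figure D1:**
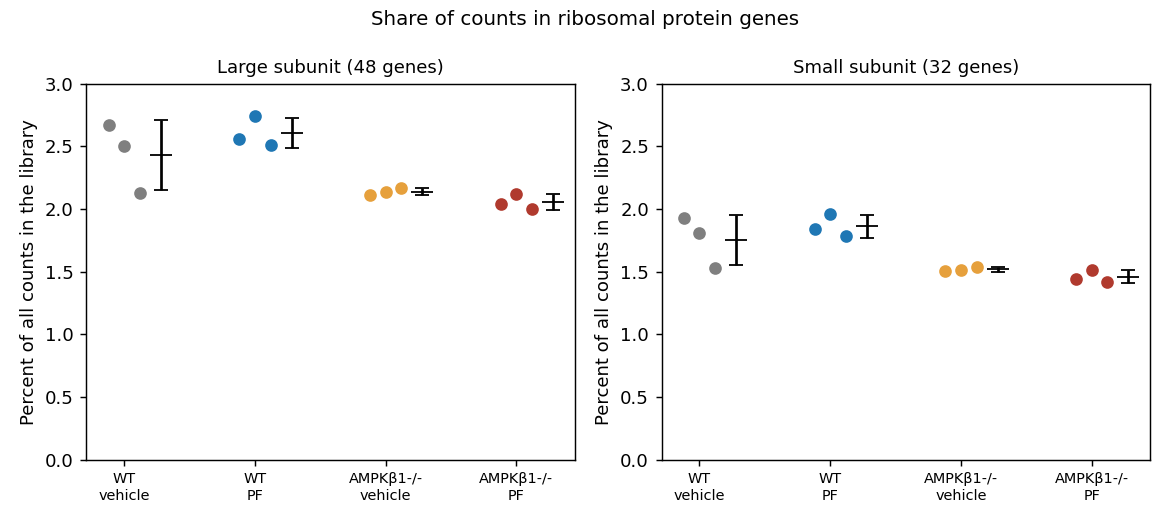
Percent of each library's counts in the 48 large subunit genes (left) and the 32 small subunit genes (right), with 1 point per library and the mean with its SD (n = 3) in black. Both subunits gave the same picture, from 2.002% to 2.74% of counts for the large and from 1.42% to 1.96% for the small subunit, with the AMPKβ1-/- libraries close together and 1 WT vehicle library near them.

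The 2 subunits gave like pictures. The large subunit genes held 2.43% ± 0.2803 and 2.60% ± 0.119 of the counts in WT vehicle and WT PF libraries and 2.14% ± 0.0296 and 2.05% ± 0.0624 in AMPKβ1-/- vehicle and PF libraries (SD, n = 3). For the small subunit these means were 1.75% ± 0.203, 1.86% ± 0.0889, 1.52% ± 0.0200 and 1.46% ± 0.0495. Over the 12 libraries the median Pearson correlation of log2 CPM between 2 members was 0.68 over 3003 pairs, and it was 0.53 after the group means were taken out. All pairs share the libraries and their depth and base composition. Rpl5 ran against the rest, with a mean correlation of −0.54 with the other members, and Rpl21 (−0.32) and Rps27a (−0.24) did so too. Between the lowest and the highest library Rpl5 spanned 2.32 and Rps29 1.74 on the log2 scale, and Rpl23a, the steadiest, 0.346.

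**Figure D2:**
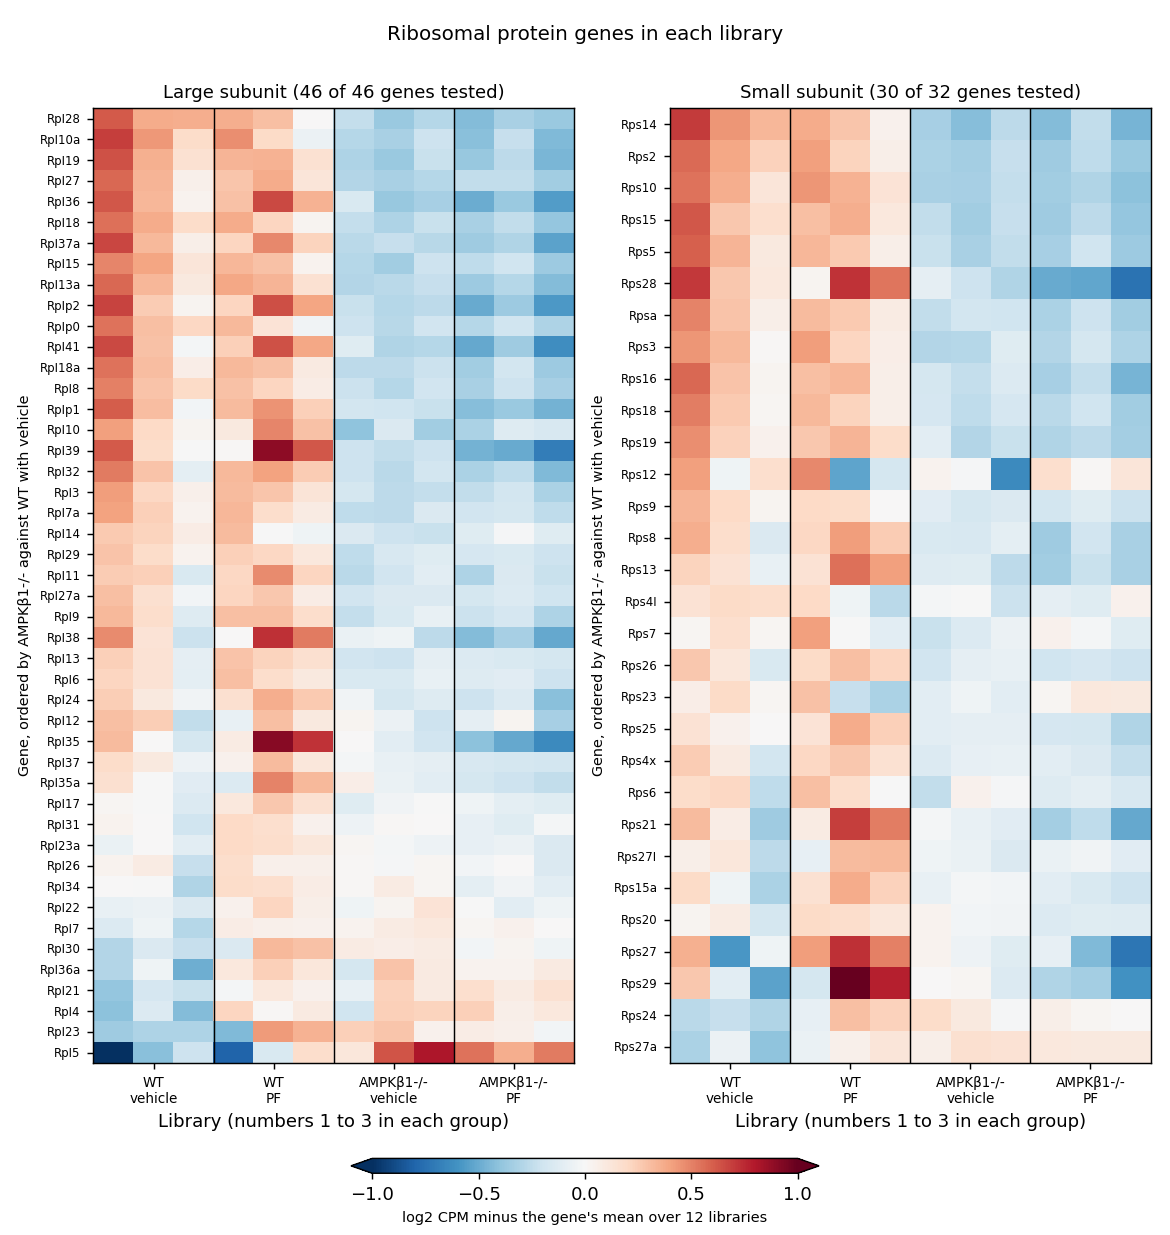
Heat map of 76 of the 78 tested genes (rows, large subunit left and small subunit right) in the 12 libraries (columns), coloured by log2 CPM minus the gene's mean over the libraries. Most rows are red in the WT libraries other than WT vehicle library 3 and blue in AMPKβ1-/- libraries. The rows at the bottom run the other way with Rpl5 as the extreme, and rows such as Rpl35, Rpl39 and Rps29 are darkest in WT PF libraries 2 and 3.

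The group with the highest mean CPM was WT PF for 44 of the 78 genes, WT vehicle for 28, AMPKβ1-/- vehicle for 4 and AMPKβ1-/- PF for 2. The lowest mean was in AMPKβ1-/- PF for 55 genes. The spread between libraries was not equal, with a median coefficient of variation of 13.5% over the members in WT vehicle, 9.53% in WT PF, 4.09% in AMPKβ1-/- vehicle and 4.73% in AMPKβ1-/- PF libraries. For all tested genes these medians were 11.6%, 10.9%, 8.96% and 7.08%, so the members spread more than all genes in WT vehicle libraries and less in the other groups.

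In WT BMDMs a few ribosomal protein mRNAs rose with PF and most passed no test. By edgeR's quasi-likelihood test 8 of the 78 rose at an adjusted p below 0.05 and 0 fell, while over all tested genes 6.99% rose and 8.95% fell. None of the 8 reached the study's threshold of 0.8 on the log2 scale, which 1.16% of all tested genes passed upward and 0.37% downward, and the members' median log2 fold change was 0.09, against 0.00 for all tested genes. The count rested on single libraries, and the share of all tested genes moved with it. Leaving out WT PF library 1 gave 20 members that rose and 6 that fell, beside 14.9% and 14.8% of all tested genes, and without WT vehicle library 1 there were 3 higher members, beside 1.70%. Without WT vehicle library 3, WT PF library 2 and WT PF library 3 there were 1, 0 and 1, beside 2.38%, 1.70% and 1.18%. The count was 5 without any one of AMPKβ1-/- vehicle libraries 2 and 3 and the 3 AMPKβ1-/- PF libraries, beside 4.93% to 5.5%, and without WT vehicle library 3 the median was −0.022. At an unadjusted p below 0.05 there were 22 higher and 2 lower members, beside 17.2% and 18.1% of all tested genes. With PF, 14 members were higher in all 3 PF libraries than in any vehicle library and 1 was lower, beside 14.2% and 18.1% of all tested genes.

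Rps24, a small subunit protein whose gene is mutated in some Diamond-Blackfan anaemia, had the smallest p of the 8. Its level was 271, 278 and 265 CPM in the vehicle libraries and 309, 402 and 384 CPM in the PF libraries. The groups did not overlap, the difference was largest in PF libraries 2 and 3, and the gene rose by 0.43 (SE 0.090, adjusted p = 0.00871) on the log2 scale. In AMPKβ1-/- BMDMs Rps24 had 372, 349.5 and 324 CPM with vehicle and 341, 331 and 328 with PF, all of them above the WT vehicle libraries.

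Rpl30, a large subunit protein known to regulate the splicing of its own pre-mRNA in yeast, had 128, 142 and 134 CPM with vehicle and 142, 197 and 193 CPM with PF in WT. Its PF library 1 exceeded the highest vehicle library by less than 1 CPM, and it rose by 0.40 (SE 0.10, adjusted p = 0.0199) on the log2 scale. Rpl4, a large subunit protein with a long loop into the exit tunnel, had 436, 526 and 429 CPM with vehicle and 671, 583 and 618 CPM with PF, or 0.43 (SE 0.11, adjusted p = 0.0234) on the log2 scale. Here all 3 PF libraries stood apart from the vehicle libraries, library 1 as the highest.

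The other genes that rose were Rpl21, by 0.30 (SE 0.086, adjusted p = 0.0294) on the log2 scale, Rpl36a, by 0.41 (SE 0.12, adjusted p = 0.0314), and Rps27a, by 0.29 (SE 0.086, adjusted p = 0.0379), which encodes a fusion of ubiquitin and a small subunit protein. Rpl23a rose by 0.22 (SE 0.066, adjusted p = 0.0395) and Rpl35 by 0.55 (SE 0.17, adjusted p = 0.0473). Rpl35 had 192, 154 and 136 CPM with vehicle and 163, 289 and 255 CPM with PF, so that PF library 1 lay inside the vehicle range and PF libraries 2 and 3 far above it. Once the GC and length trend of each library was taken out, the log2 fold changes of Rpl36a and Rpl23a were −0.0057 and −0.0079, and 4 members (5.13%) rose and 2 (2.56%) fell, beside 3.23% and 3.89% of all tested genes. Rps24 and Rpl21 were the genes that rose in both fits, and Rpl30, Rpl4, Rps27a and Rpl35 lost the call in this one.

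**Figure D3:**
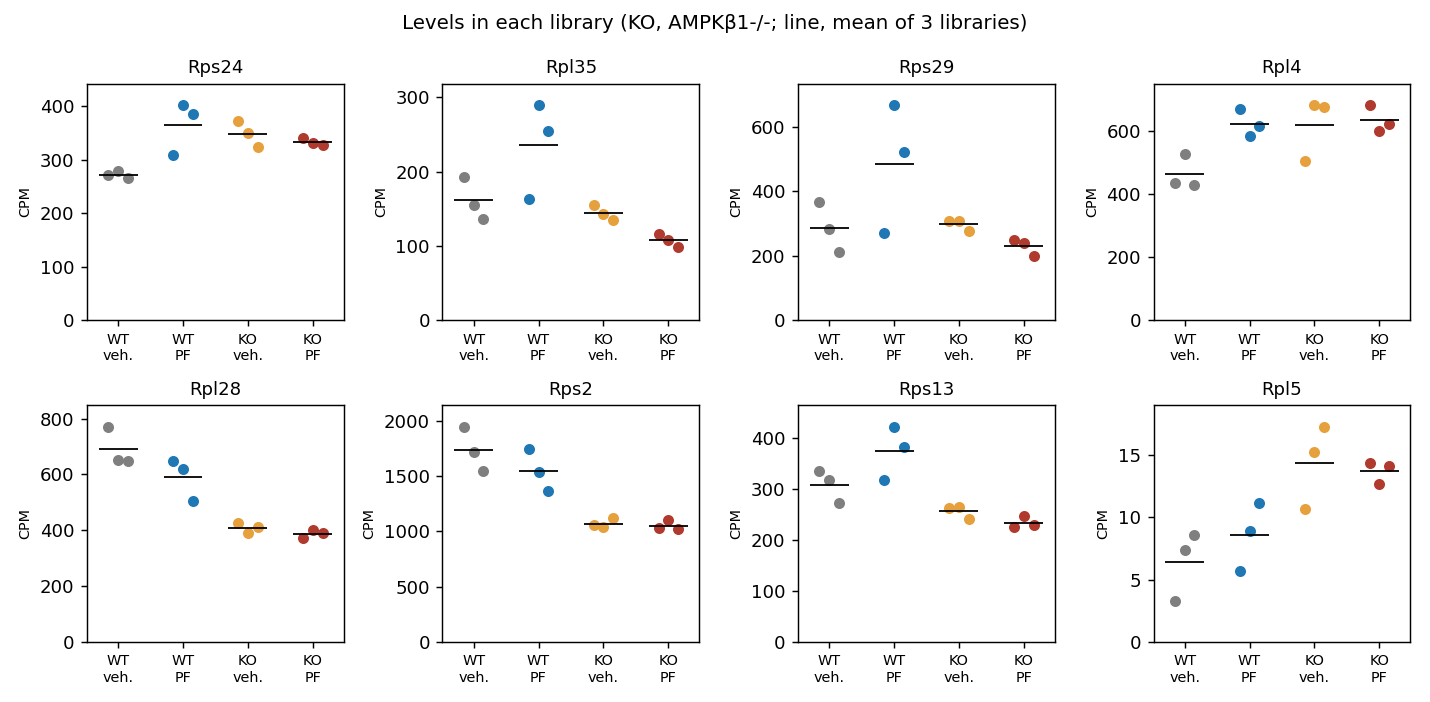
CPM in each library (points, 3 per group) with the group mean (line) for 8 members. Rps24, Rpl35 and Rps29 show WT PF libraries 2 and 3 above the rest, Rpl28, Rps2 and Rps13 show every AMPKβ1-/- library below every WT library, and Rpl5 is the low member that was higher in AMPKβ1-/- BMDMs.

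Rps29, a zinc-binding protein of the small subunit, had the highest log2 fold change with PF in WT and did not pass the test. Its level was 367, 283 and 211 CPM with vehicle and 269, 667 and 521 CPM with PF, or 0.76 (SE 0.28, adjusted p = 0.0874) on the log2 scale. The first PF library was inside the vehicle range, and without it the adjusted p was 0.00294. At the other end Rps14 had 2061, 1726 and 1605 CPM with vehicle and 1643, 1542 and 1309.5 CPM with PF, overlapping, and −0.26 (SE 0.10, adjusted p = 0.0897) on the log2 scale.

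In AMPKβ1-/- BMDMs no member rose or fell with PF by edgeR, where 0.0554% of all tested genes rose and 0% fell. At an unadjusted p below 0.05 there were 0 higher and 2 lower members by edgeR, against 4.29% and 0.693% of all tested genes, and DESeq2 and limma-voom called 0. In a fit to the AMPKβ1-/- libraries alone 2 members fell, beside 0.0374% of all tested genes. The median log2 fold change was −0.06, and 21 members were lower in all 3 PF libraries than in any vehicle library and 2 higher, against 6.28% and 8.21% of all tested genes. The differences were small: Rpl35 was the lowest, at 155, 143 and 135 CPM with vehicle and 116, 108 and 98.9 CPM with PF, or −0.42 (SE 0.18, adjusted p = 0.924), and Rps12 the highest, at 0.26 (SE 0.23, adjusted p = 0.982) with 12.5 to 27.1 CPM in the 12 libraries.

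The test of the difference between the 2 responses called 0 members by edgeR, and over all tested genes 0.176% were higher and 0.24% lower in WT. At an unadjusted p below 0.05 the WT response was the higher one for 26 members and the lower one for 0, where 6.35% and 7.97% of all tested genes passed. DESeq2 called 2 members higher, beside 0.647% of all tested genes, and limma-voom 0, and without WT PF library 1 edgeR called 9 higher and 1 lower, beside 1.22% and 1.38%. The median difference was 0.19 on the log2 scale. Rps29 had the largest, 1.13 (SE 0.40, adjusted p = 0.250), and Rps12 the lowest, −0.46 (SE 0.32, adjusted p = 0.529).

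In the counts as deposited the signs of the 2 responses, which share no library, were mostly opposite. Of the 78 genes 43 had a positive log2 fold change in WT and a negative one in AMPKβ1-/- BMDMs, 7 the reverse, 7 were positive in both and 21 negative in both, and across the genes the Spearman correlation was −0.38. Rpl23a, Rpl30, Rpl34 and Rps20, from both subunits, were among the members higher in every PF library in WT and lower in every PF library in AMPKβ1-/- BMDMs, and 0 members showed the reverse. These 4 were picked out after their values were seen, and their adjusted p for the difference ran from 0.149 to 0.222. Signs were nearer to even with the GC and length trend taken out. Then 41 members were positive and 37 negative in WT, and 33 and 45 in AMPKβ1-/- BMDMs. As deposited, 5485 of all tested genes were positive and 5335 negative in WT, and 5274 and 5548 in AMPKβ1-/- BMDMs. How many of all tested genes had opposite signs in the 2 responses was not worked out. The signs were not particular to the members. Of 73 respiratory chain subunits, 51 were positive and 22 negative in WT, and 11 and 62 in AMPKβ1-/- BMDMs.

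**Figure D4:**
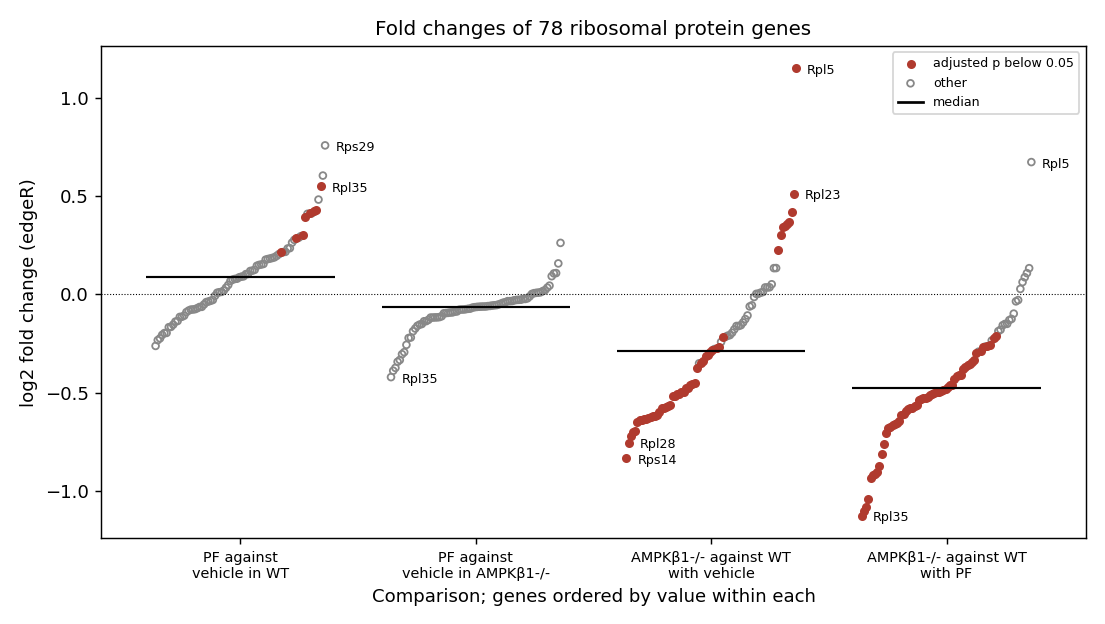
Log2 fold changes of the 78 tested genes in 4 comparisons, ordered by value within each, with filled points at an adjusted p below 0.05 (edgeR) and a line at the median. The medians are 0.09, −0.06, −0.29 and −0.48 from left to right, and Rpl5 is the highest gene in both comparisons of the genotypes.

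Between the genotypes with vehicle, most ribosomal protein mRNAs were lower in AMPKβ1-/- BMDMs. Of the 78 genes 42 fell and 9 rose, where 30% of all tested genes fell and 29.7% rose, and the median log2 fold change was −0.29 against −0.03. The groups of libraries did not overlap for 42 lower and 9 higher members, against 32% and 30.9% of all tested genes. The fall was seen in both subunits, in 27 of 46 large and 15 of 32 small subunit genes, with 7 and 2 that rose. With libraries scaled by their totals alone, a choice that moved the median of all genes to 0.18, the members split into 29 that fell and 17 that rose around a median of −0.07, beside 14.8% and 39.7% of all tested genes. At the study's threshold of 0.8 on the log2 scale 1 member was lower, Rps14, and 1 higher, Rpl5, beside 1.76% and 16.1% of all tested genes.

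Rps14, a small subunit protein whose loss on one allele is known from a form of myelodysplasia, fell the furthest. It had 2061, 1726 and 1605 CPM in WT and 1009.7, 949 and 1063 CPM in AMPKβ1-/- vehicle libraries, or −0.84 (SE 0.11, adjusted p = 4.19e-05) on the log2 scale. Rpl28, a large subunit protein, had 770.2, 651 and 648 CPM and 425, 389 and 412 CPM, or −0.75 (SE 0.096, adjusted p = 4.43e-05). Rps2, at the mRNA entry of the small subunit, had 1946, 1723 and 1547 CPM and 1054, 1037 and 1119.5 CPM, or −0.70 (SE 0.097, adjusted p = 7.29e-05). In all 3 the lowest WT library lay well above the highest AMPKβ1-/- library, and the AMPKβ1-/- libraries were close to each other.

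The members that rose were Rps27a, Rpl21, Rps24, Rpl4, Rpl30, Rpl36a, Rpl5 and, named after their values were seen, Rpl23 and Rpl7. Rps27a had 247, 295 and 233 CPM in WT and 320.1, 342 and 339 CPM in AMPKβ1-/- vehicle libraries, or 0.37 (SE 0.086, adjusted p = 0.00201) on the log2 scale. Rpl21 rose by 0.35 (SE 0.086, adjusted p = 0.00292) and Rps24 by 0.36 (SE 0.090, adjusted p = 0.00319). Rpl5 rose by 1.15 (SE 0.30, adjusted p = 0.00466), from 3.31, 7.38 and 8.56 CPM to 10.7, 15.3 and 17.3 CPM, at a level where sharing of reads with copies would weigh most. Of these 9 genes, Rps24, Rpl4, Rpl21, Rpl36a, Rps27a and Rpl30 were also among the 8 that rose with PF in WT. Both lists were tested against the same WT vehicle libraries, so the 2 sets of values are not independent. Once the GC and length trend was taken out Rpl36a had 0.10 (adjusted p = 0.442) and Rpl7 0.12 (adjusted p = 0.114), and the other 7 of the 9 still rose. Rpl36a also lost the call without WT vehicle library 1 (adjusted p = 0.0576), WT vehicle library 3 (0.102), AMPKβ1-/- vehicle library 2 (0.140) or AMPKβ1-/- vehicle library 3 (0.0501).

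With PF in both genotypes the difference was wider. Of the 78 genes 59 fell in AMPKβ1-/- against WT and 0 rose, where 22.9% of all tested genes fell and 24.1% rose, and the median log2 fold change was −0.48 against −0.00. A total of 64 members were lower in every AMPKβ1-/- library and 1 was higher, beside 30% and 29.9% of all tested genes, and 10 were lower by more than 0.8 on the log2 scale, beside 2.06%. In the large subunit 35 of 46 fell and in the small subunit 24 of 32. Of the 42 genes that fell with vehicle 41 also fell with PF, 18 fell with PF only, and of the 9 that rose with vehicle 0 fell with PF. The 2 comparisons of the genotypes share no library, and whether they differ is the test of the difference between the PF responses, which called 0 members.

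Rps13, a small subunit protein, had the smallest p, with 319, 423 and 383 CPM in WT and 227, 247 and 229.6 CPM in AMPKβ1-/- PF libraries, or −0.68 (SE 0.10, adjusted p = 1.09e-04) on the log2 scale. Rps10, also of the small subunit, had 898, 843 and 726 CPM and 519, 538 and 497 CPM, or −0.67 (SE 0.10, adjusted p = 1.21e-04). For both genes every AMPKβ1-/- library lay below every WT library. Rpl35 had the lowest log2 fold change, −1.13 (SE 0.18, adjusted p = 2.61e-04), with 163, 289 and 255 CPM in WT and 116, 108 and 98.9 CPM in AMPKβ1-/- PF libraries. The 10 members past 0.8 were, in this order, Rpl35, Rpl39, Rps29, Rps28, Rps27, Rpl41, Rpl36, Rplp2, Rpl38 and Rps21, with −0.82 for the last, and those outside the naming rule are given after their values were seen.

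Rps29 had 269, 667 and 521 CPM in WT and 248, 240.4 and 199.8 CPM in AMPKβ1-/- PF libraries, or −1.08 (SE 0.29, adjusted p = 0.0102). With vehicle it had 367, 283 and 211 CPM and 306, 308 and 277 CPM, groups that overlapped. Rps28, also of the small subunit, had 407, 659 and 577 CPM in WT and 281, 278 and 239 CPM in AMPKβ1-/- PF libraries. Of the 10 genes 8 were among the 26 members with the shortest median protein-coding transcript (371 to 606 bases), Rpl39 was among the middle 26 and Rpl35 among the longest 26. In the shortest set the median log2 fold change between the genotypes with PF was −0.60, against −0.50 in the middle 26 and −0.29 in the longest 26 (896 to 3706 bases). In these sets 20, 24 and 15 genes fell, beside 22.9% of all tested genes. With vehicle these medians were −0.31, −0.40 and −0.21. A trend with length was also seen over all genes. The Spearman correlation of log2 fold change with this length, for the genotypes under PF, was 0.42 over the 78 members. Over the 10786 tested genes with a length it was 0.34. The slope of log2 CPM on log2 exon length over all tested genes was −0.12 to −0.07 in WT PF libraries. In AMPKβ1-/- PF libraries it was 0.05 to 0.11, and the cause was not tested. The calls with PF ended, with the GC and length trend taken out, for Rps29, at −0.51 (adjusted p = 0.136), Rps27, at −0.45 (adjusted p = 0.12), and Rpl38, at −0.35 (adjusted p = 0.0904).

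Of the 78 genes 9 were called in neither comparison of the genotypes: Rpl12, Rpl22, Rpl26, Rps12, Rps23, Rps27l, Rps4l, Rps6 and Rps7. After the GC and length trend was taken out Rps27l fell and Rpl26 rose in both, Rpl22 rose with vehicle and Rps4l with PF. Rpl5 had the highest fold change with PF, at 5.66, 8.89 and 11.2 CPM and 14.4, 12.7 and 14.1 CPM, and its 0.67 (SE 0.28, adjusted p = 0.0648) did not pass the test.

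All 3 genes of the stalk, which recruits the elongation factors, fell in AMPKβ1-/- BMDMs. Rplp0 had 2906, 2451 and 2297 CPM in WT vehicle, 2498, 2193 and 1943 in WT PF, 1727, 1649 and 1746 in AMPKβ1-/- vehicle and 1632, 1734 and 1608 in AMPKβ1-/- PF libraries. It fell in AMPKβ1-/- BMDMs (log2 fold change −0.58, SE 0.099, adjusted p = 2.34e-04) with vehicle and (log2 fold change −0.42, SE 0.099, adjusted p = 0.00315) with PF. Rplp1 fell (log2 fold change −0.52, SE 0.12, adjusted p = 0.00162) with vehicle and (log2 fold change −0.76, SE 0.12, adjusted p = 1.58e-04) with PF, and Rplp2 (log2 fold change −0.60, SE 0.14, adjusted p = 0.00275) with vehicle and (log2 fold change −0.91, SE 0.14, adjusted p = 2.7e-04) with PF. All 3 stalk genes were lower in every AMPKβ1-/- library than in every WT library of the same treatment, and none of them rose or fell with PF. Of these 6 calls 3 ended with the GC and length trend taken out, where Rplp1 had −0.053 (adjusted p = 0.587) and Rplp2 −0.18 (adjusted p = 0.253) with vehicle and Rplp0 −0.062 (adjusted p = 0.398) with PF.

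The genes of the 5S particle, Rpl5 and Rpl11, went in opposite directions with vehicle. Rpl11, which with Rpl5 can also bind MDM2, had 271, 267 and 204 CPM in WT and 188, 199 and 210.2 CPM in AMPKβ1-/- vehicle libraries and fell (log2 fold change −0.32, SE 0.11, adjusted p = 0.0174), in the opposite direction to Rpl5. With PF it fell (log2 fold change −0.53, SE 0.11, adjusted p = 0.00100). The call with vehicle was lost with libraries scaled by their totals alone (0.421) and without WT vehicle library 1 (adjusted p = 0.0812), WT vehicle library 2 (0.0719) or AMPKβ1-/- vehicle library 1 (0.0564), and after the GC and length trend was taken out its difference was 0.071 (adjusted p = 0.516) on the log2 scale with vehicle and −0.089 (adjusted p = 0.393) with PF.

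Rps6, the S6 kinase substrate that is used as a readout of mTORC1, had 588, 599.7 and 434 CPM in WT vehicle, 641, 585 and 518 in WT PF, 437, 534 and 516 in AMPKβ1-/- vehicle and 474, 486 and 464 in AMPKβ1-/- PF libraries. The groups overlapped in each comparison but that of the genotypes with PF, and it passed no test, with an adjusted p of 0.0508 at a log2 fold change of −0.29 as the nearest. These are mRNA levels and say nothing of its phosphorylation.

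Rpsa, the laminin receptor protein of the small subunit, fell in AMPKβ1-/- BMDMs (log2 fold change −0.51, SE 0.099, adjusted p = 5.75e-04) with vehicle and (log2 fold change −0.51, SE 0.099, adjusted p = 7.66e-04) with PF. Rps3, at the mRNA entry, fell (log2 fold change −0.50, SE 0.11, adjusted p = 0.00120) with vehicle and (log2 fold change −0.50, SE 0.11, adjusted p = 0.00179) with PF, and Rps19, the gene most often mutated in Diamond-Blackfan anaemia, (log2 fold change −0.46, SE 0.095, adjusted p = 7.65e-04) with vehicle and (log2 fold change −0.57, SE 0.095, adjusted p = 2.65e-04) with PF. In the large subunit Rpl13a, which can leave the ribosome and silence inflammatory mRNAs in macrophages, had 1609, 1365 and 1158 CPM in WT and 881, 897 and 920.3 CPM in AMPKβ1-/- vehicle libraries and fell (log2 fold change −0.61, SE 0.10, adjusted p = 2.01e-04). Rpl10 fell (log2 fold change −0.52, SE 0.11, adjusted p = 0.00134) with vehicle and (log2 fold change −0.50, SE 0.11, adjusted p = 0.00233) with PF, and Rpl41, the shortest of the proteins, (log2 fold change −0.57, SE 0.15, adjusted p = 0.00445) with vehicle and (log2 fold change −0.92, SE 0.15, adjusted p = 3.07e-04) with PF. All of these genes are among the 41 that fell with both treatments. With the GC and length trend taken out Rps19 had −0.010 (adjusted p = 0.927) and Rpl41 −0.14 (adjusted p = 0.28) with vehicle and Rpl10 −0.16 (adjusted p = 0.130) with PF, so that these 3 calls ended.

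Of the paralogs one was nearly silent. Rpl39l, the testis form of Rpl39, had 0 to 3 counts where Rpl39 had 331, 246 and 216 CPM in the WT vehicle libraries. Rps27l, a paralog induced by p53, had 33.5 to 50.2 CPM in the 12 libraries, far above the 1.67 to 4.59 CPM listed for Rps27. In the counts as deposited Rps27l passed no test, and Rps27 fell in AMPKβ1-/- BMDMs with PF (log2 fold change −0.94, SE 0.24, adjusted p = 0.00536). This turned round with the GC and length trend taken out. Rps27 then lost its call, at −0.45 (adjusted p = 0.12), and Rps27l fell with PF in WT, by a log2 fold change of −0.40 (adjusted p = 0.0281), and between the genotypes, at −0.85 (adjusted p = 2.77e-05) with vehicle and −0.56 (adjusted p = 4.39e-04) with PF. Rps4l had 9.23 to 12.8 CPM beside 829 to 1180 CPM for Rps4x, and passed no test as deposited, and Rps4x fell in AMPKβ1-/- BMDMs with PF (log2 fold change −0.37, SE 0.093, adjusted p = 0.00450). With the trend taken out Rps4l rose in that comparison, at 0.38 (adjusted p = 0.0218), and Rps4x lost its call, at −0.10 (adjusted p = 0.225). Rpl22l1, which is no member by its symbol, rose in AMPKβ1-/- BMDMs with vehicle by 0.92 (SE 0.20, adjusted p = 0.00120) and its paralog Rpl22 passed no test as deposited. With the trend taken out Rpl22l1 had −0.18 (adjusted p = 0.377) and Rpl22 0.18 (adjusted p = 0.0224) in that comparison. Rpl36al rose with PF in WT by 0.38 (SE 0.10, adjusted p = 0.0239), as Rpl36a did.

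The fold changes with PF in WT and between the genotypes followed the GC content of the transcripts, and those with PF in AMPKβ1-/- BMDMs did not. When the members were split into 3 equal sets of 26 by GC content, 5, 2 and 1 rose with PF in WT in the lowest (41.3% to 49.7%), middle and highest (54.5% to 60.8%) set, with median log2 fold changes of 0.21, 0.06 and −0.05. Between the genotypes with vehicle 7 fell and 7 rose in the lowest set, 13 and 2 in the middle and 22 and 0 in the highest, with medians of −0.06, −0.28 and −0.58. With PF 16, 19 and 24 fell, with medians of −0.31, −0.44 and −0.58. Beside these counts, 6.99% of all tested genes rose with PF in WT, 30% fell and 29.7% rose with vehicle, and 22.9% fell with PF. The 7 that fell and 7 that rose with vehicle in the lowest set were near the shares of all tested genes. Shares of all genes split by GC content were not worked out. For PF in AMPKβ1-/- BMDMs the medians of the 3 sets were −0.070, −0.068 and −0.062.

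To show what this means in letters, the first 90 coding bases of a member that fell and a member that rose between the genotypes with vehicle, Rpl28 and Rpl5, are given with G and C in capitals (GENCODE M21 on GRCm38, plus strand, Rpl28 at chr7:4792874-4795066 and Rpl5 at chr5:107900502-107909005).
Rpl28: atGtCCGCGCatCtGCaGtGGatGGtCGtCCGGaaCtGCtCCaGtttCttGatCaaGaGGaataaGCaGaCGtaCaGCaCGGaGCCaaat
Rpl5: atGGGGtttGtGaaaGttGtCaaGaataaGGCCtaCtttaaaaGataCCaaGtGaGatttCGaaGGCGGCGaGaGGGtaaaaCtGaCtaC
The stretch of Rpl28 holds 52.2% G or C and that of Rpl5 42.2%, and over the whole coding sequences the shares are 56.0% and 45.9%.

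A trend with GC content was also seen over all genes. Across the 78 members the Spearman correlation of log2 fold change with GC content was −0.49 for PF in WT, −0.04 for PF in AMPKβ1-/- BMDMs, −0.59 for the genotypes under vehicle and −0.45 under PF, and over the 10786 tested genes with a GC value it was −0.71, −0.45, −0.77 and −0.56. The slope, over all tested genes, of a gene's log2 CPM relative to its mean over libraries on 10 percentage points of GC content differed between libraries, from 0.35 to 0.71 in WT vehicle, −0.08 to 0.34 in WT PF, −0.34 to −0.07 in AMPKβ1-/- vehicle and −0.50 to −0.32 in AMPKβ1-/- PF libraries. Whether base composition of the libraries or biology set this trend was not tested.

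With the trend in GC content and length taken out library by library, the members' differences shrank. Between the genotypes with vehicle 28 fell and 12 rose around a median of −0.12, where 19.5% of all tested genes fell and 13.96% rose, and 23 of the 28 were genes that fell without this step. With PF 32 fell and 7 rose around −0.14, where 21.3% and 16.4% of all genes did. Of the 32, 31 had fallen before, and 2 of the 7 that rose had also fallen before. Rps14 then had a log2 fold change of −0.43 with vehicle (adjusted p = 4.63e-05), Rpl28 −0.33 (1.71e-04), Rps2 −0.24 (0.00363) and Rpl5 0.67 (0.0263), and with PF Rps13 had −0.46 (2.09e-04) and Rpl35 −0.71 (0.0218). Rpl13 turned from a fall of −0.27 to a rise of 0.20 with vehicle.

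**Figure D5:**
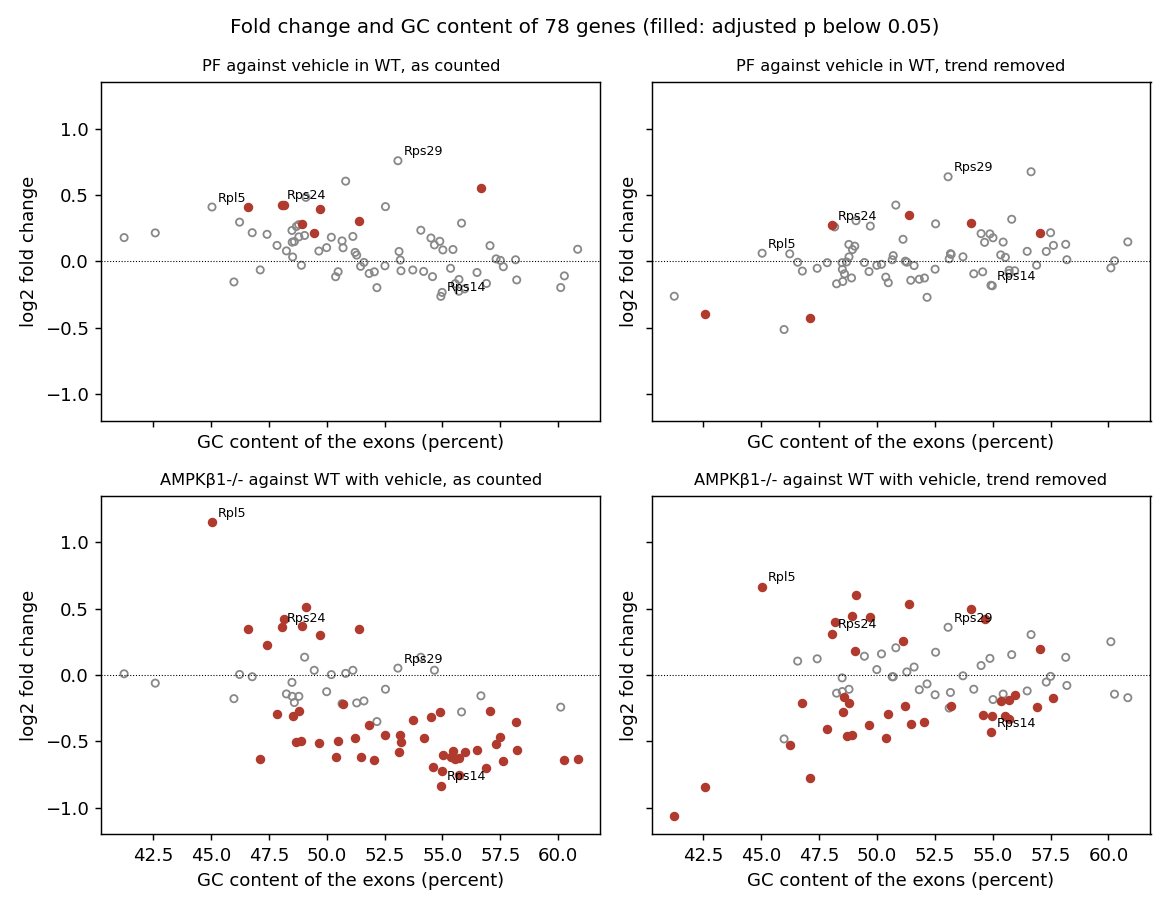
Log2 fold change against GC content of the transcripts (percent, labelled as exons on the axis) for the 78 tested genes, with PF in WT (top) and for AMPKβ1-/- against WT with vehicle (bottom), as counted (left) and after the GC and length trend of each library was taken out (right). Filled points have an adjusted p below 0.05, and the slope on the left, with Spearman correlations of −0.49 and −0.59, is gone or turned on the right, with 0.30 and 0.11.

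Ribosomal proteins that the symbols missed gave a mixed picture. Of 7 tested genes of this kind, 3 rose with PF in WT (Rpl22l1, Rpl36al and Rps3a1), and 4 fell and 2 rose in AMPKβ1-/- BMDMs with vehicle, and 4 fell with PF. Beside these, 6.99% of all tested genes rose with PF in WT, 30% fell and 29.7% rose with vehicle, and 22.9% fell with PF. Fau, a ubiquitin-like fusion of the small subunit, fell (log2 fold change −0.63, SE 0.10, adjusted p = 2.05e-04) with PF, with the smallest p of those that fell. Rps3a1, named after its values were seen, rose in AMPKβ1-/- BMDMs with vehicle by 0.39 (SE 0.10, adjusted p = 0.00430).

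Of 15 tested translation factors and other mRNAs with a known TOP motif, 2 rose and 1 fell with PF in WT, and 5 rose and 7 fell in AMPKβ1-/- BMDMs with vehicle, and 3 rose and 7 fell with PF. Over all tested genes 6.99% rose and 8.95% fell with PF in WT. Between the genotypes 29.7% and 30% did with vehicle, and 24.1% and 22.9% with PF. Tpt1, a classical TOP mRNA, had 1000.5, 1182 and 970.1 CPM in WT vehicle and 1457, 1486 and 1536 CPM in WT PF libraries and rose by 0.51 (SE 0.079, adjusted p = 0.00172). Eef2, the elongation factor that moves the ribosome along, fell with PF (log2 fold change −0.39, SE 0.094, adjusted p = 0.0168). Eif3f fell in AMPKβ1-/- BMDMs with vehicle (log2 fold change −0.68, SE 0.082, adjusted p = 3.26e-05), with the smallest p of the list, and Eif3e rose in AMPKβ1-/- BMDMs against WT with PF by 0.79 (SE 0.20, adjusted p = 0.00640), a difference that was −0.073 without the GC and length trend. The call of Eef2 ended with that trend taken out, at −0.14 (adjusted p = 0.129), when the WT libraries were fitted by themselves (0.0821), and when WT vehicle library 1 (0.0658) or one of WT PF libraries 2 (0.0755) and 3 (0.0919) was left out.

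The factors that build ribosomes were called with vehicle at close to the share of all tested genes. Of 32 assembly genes 3 rose and 1 fell with PF in WT, 10 rose and 10 fell (31.25% each) in AMPKβ1-/- BMDMs with vehicle, and 5 rose and 14 fell (15.6% and 43.75%) with PF. For these and the polymerase counts below, 6.99% of all tested genes rose and 8.95% fell with PF in WT. The shares were 29.7% and 30% between the genotypes with vehicle and 24.1% and 22.9% with PF. Sbds, which readies the 60S subunit, rose with PF in WT by 0.38 (SE 0.096, adjusted p = 0.0200) and Bop1 was the 1 that fell (log2 fold change −0.33, SE 0.11, adjusted p = 0.0478). Neither call held in all alternatives. That of Bop1 was lost in 16 of 23 alternatives, with a log2 fold change as small as −0.076 (adjusted p = 0.576) with the GC and length trend taken out, and that of Sbds in 5, with 0.22 (adjusted p = 0.130) under the same step. In AMPKβ1-/- BMDMs nucleolin (Ncl) rose with vehicle by 1.24 (SE 0.21, adjusted p = 3.49e-04) and Pes1 fell (log2 fold change −0.54, SE 0.081, adjusted p = 1.05e-04). Of 15 tested genes of RNA polymerase I, which transcribes ribosomal RNA, 3 rose and 6 fell in AMPKβ1-/- BMDMs with vehicle and 3 rose and 3 fell with PF, among them with vehicle Polr1c (log2 fold change −0.68, SE 0.11, adjusted p = 1.45e-04), and with PF in WT Polr1a fell (log2 fold change −0.41, SE 0.075, adjusted p = 0.00432) and Taf1b rose by 0.73 (SE 0.21, adjusted p = 0.0296). Without the GC and length trend Ncl had 0.30 (adjusted p = 0.0103), Polr1c −0.30 (adjusted p = 0.00495) and Taf1b 0.44 (adjusted p = 0.108), and the call of Taf1b was lost in 6 of 23 alternatives.

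Of 17 genes listed as regulators of translation or of ribosomal protein mRNAs, 0 rose and 1 fell with PF in WT, Rps6ka1, an RSK kinase, (log2 fold change −0.53, SE 0.092, adjusted p = 0.00295). In AMPKβ1-/- BMDMs 8 rose and 7 fell with vehicle, and 7 rose and 1 fell with PF. The list holds kinases, RNA-binding proteins, partners of mTOR, eIF4E-binding proteins and Myc. For this list and the p53 targets below, 6.99% of all tested genes rose and 8.95% fell with PF in WT. The shares were 29.7% and 30% between the genotypes with vehicle and 24.1% and 22.9% with PF. With vehicle the S6 kinase gene Rps6kb1 rose by 1.42 (SE 0.16, adjusted p = 2.57e-05) and the mTORC1 inhibitor gene Akt1s1 fell (log2 fold change −0.58, SE 0.10, adjusted p = 2.69e-04). With the GC and length trend taken out Rps6kb1 had 0.030 (adjusted p = 0.910), so that its call ended, and Akt1s1 −0.20 (adjusted p = 0.0417). Larp1 passed no test as deposited. Of 14 targets of p53, which stalled ribosome assembly can activate, 1 rose and 5 fell with PF in WT and 5 rose and 4 fell in AMPKβ1-/- BMDMs with vehicle (5 and 3 with PF), with Ccng1, a cyclin, at 1.47 (SE 0.23, adjusted p = 2.16e-04) and Cdkn1a, a cell cycle inhibitor, at −0.64 (SE 0.092, adjusted p = 8.81e-05) as the smallest p in each direction. With the trend taken out these were 0.37 (adjusted p = 0.0428) and −0.32 (adjusted p = 0.00104).

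Other large protein complexes, chosen by symbol too, are given for comparison. Between the genotypes with vehicle 39 of 78 mitochondrial ribosomal proteins, 23 of 48 proteasome subunits and 35 of 73 respiratory chain subunits fell, and 8 of each rose, with medians of −0.32, −0.28 and −0.29 beside the −0.29 of the members. With PF 48, 30 and 57 of them fell, with medians of −0.36, −0.32 and −0.52 beside −0.48. With PF in WT 4, 5 and 9 of them rose and 0 fell, with medians of 0.07, 0.05 and 0.13 beside 0.09. With PF in AMPKβ1-/- BMDMs 0 of them rose or fell, with medians of −0.03, −0.06 and −0.11 beside −0.06. At an unadjusted p below 0.05 by edgeR the WT response was the higher one for 7, 7 and 26 of them. It was the lower one for 1, 1 and 0, beside 26 and 0 of the members and 6.35% and 7.97% of all tested genes. Of all tested genes 30% fell and 29.7% rose with vehicle, 22.9% and 24.1% with PF, and 8.95% and 6.99% with PF in WT. With the GC and length trend taken out, 24, 17 and 24 genes of the 3 sets fell with vehicle and 6, 4 and 8 rose, beside 19.5% and 13.96%. With PF 23, 18 and 36 fell and 2, 3 and 2 rose, beside 21.3% and 16.4%. The medians with PF were then −0.14, −0.15 and −0.20, beside the −0.14 of the members. The differences between these sets were not tested.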

How the data were processed

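Total RNA of 12 BMDM libraries, 4 groups of 3, was prepared with a directional kit and sequenced in pairs. The authors trimmed reads with Trim Galore, checked them with MultiQC and quantified transcripts with Salmon, and they deposited 1 table of whole-number counts per gene. The genome build, the transcript index and the program versions are not given in the sources used here. Estimated counts share reads among near-identical copies, so members with pseudogenes or paralogs are uncertain. The title of each library and its column in the table gave its group, and 0 columns of samples were left unused. Library totals of 8935609 to 14358180 counts set the precision. The table lists 12960 genes and holds no authors' comparison.

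Counts were fitted in R 4.3.3 with edgeR 4.0.16 (filterByExpr, TMM, robust quasi-likelihood test, 4 group means in 1 fit of all 12 libraries), and p-values were adjusted over the 10822 genes tested (Benjamini-Hochberg). A gene rose or fell at an adjusted p below 0.05. The study used DESeq2 and a threshold of 0.8 on the log2 scale, given here as an alternative. SEs of log2 fold changes are approximate, worked out from the F statistics. CPM are scaled by TMM. Gene lengths came from the exons of GENCODE M21 (GRCm38), with 10786 tested genes matched, and starts from RefSeq (GRCm38.p6). GC content was taken over all bases of a gene's protein-coding transcripts in GENCODE M21, or of all its transcripts where none was protein coding. The alternatives were other scalings, filters, DESeq2 1.42.0, limma-voom (limma 3.58.1), fits to the libraries of a comparison alone, a replicate block, a spline trend in GC content and length (5 degrees of freedom) removed per library, and each library left out. The steps were tested on simulated data.

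Members were named when they had 1 of the 3 smallest p in a direction and comparison, the highest or lowest fold change or level, a fixed role, a fixed paralog or counts too low to test, and list genes when they had the smallest p in a direction. Rpl23a, Rpl34, Rps20, Rpl23, Rpl7, Rpl13, Rpl21, Rpl26, Rpl36, Rpl36a, Rpl38, Rpl39, Rps7, Rps21, Rps23, Rps28, Rps3a1 and Larp1 were named in places after their values were seen. Some genes are not reported here by name. The members and lists were chosen with earlier results of these data known, so no count over them is independent support.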

Additional observations from a re-analysis of the deposited data

Results flagged for a closer look

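The response to PF differed between the genotypes for 2 of the named genes, neither of them a member. For Tpt1, the classical TOP mRNA, the response in WT exceeded that in AMPKβ1-/- BMDMs by 0.56 on the log2 scale (SE 0.11, adjusted p = 0.0417, edgeR's quasi-likelihood test). Its levels were 1000.5, 1182 and 970.1 CPM in WT vehicle, 1457, 1486 and 1536 in WT PF, 1524, 1631 and 1575 in AMPKβ1-/- vehicle and 1565, 1489.9 and 1500.3 in AMPKβ1-/- PF libraries, so that the WT vehicle libraries were the lowest. This call was lost in 10 of 22 alternatives, with DESeq2's size factors (adjusted p = 0.0511) and without any one of WT vehicle libraries 1 and 3, WT PF libraries 2 and 3, AMPKβ1-/- vehicle libraries 2 and 3 and the 3 AMPKβ1-/- PF libraries (0.0797 to 0.170), where the difference was 0.51 to 0.58. For Cx3cr1, the fractalkine receptor and one of the 12 macrophage markers, the difference was −0.995 (SE 0.094, adjusted p = 0.000174), with 185, 179.6 and 184 CPM in WT vehicle, 88.0, 91.4 and 85.2 in WT PF, 165, 176 and 170.2 in AMPKβ1-/- vehicle and 168, 159 and 165 in AMPKβ1-/- PF libraries, and its call was lost in 0 of 22 alternatives. Groups of 3 libraries are too small for a test of outlying samples.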

How the results depend on the processing

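Of 100 named results 60 kept their direction and their side of the threshold under all alternatives, and 31 of the 93 called ones lost the call under at least 1. The counts of members called follow, each with the share of all tested genes called in the same fit. With libraries scaled by their totals alone 20 rose with PF in WT (9.66%), 17 rose in AMPKβ1-/- against WT with vehicle (39.7%, median of the members −0.074) and 1 with PF (31.8%, median −0.33). DESeq2 called 15 higher with PF in WT (9.99%), 2 higher for the difference between the responses (0.647%) and 1 higher between the genotypes with PF (24.3%), and limma-voom also 1 there (24.6%). Fits to the libraries of a comparison alone gave 2 higher with PF in WT (2.01%), 2 lower with PF in AMPKβ1-/- BMDMs (0.0374%) and 1 higher between the genotypes with PF (24.6%). The threshold of 0.8 left 0 higher with PF in WT (1.16%), 1 higher (16.1%) and 1 lower (1.76%) between the genotypes with vehicle and 10 lower with PF (2.06%).

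With the GC and length trend removed 4 rose (3.23%) and 2 fell (3.89%) with PF in WT, 1 was higher for the difference between the responses (0.804%, median 0.045), the median between the genotypes with vehicle was −0.12, and with PF 7 rose (16.4%) and 32 fell (21.3%, median −0.14). Among the 100 named results directions turned for 7. With PF in WT these were Rpl23a (−0.0079) and Rpl36a (−0.0057). Between the genotypes they were Rpl11 (0.071) and Rpl22l1 (−0.18) with vehicle, and Rps18 (0.028), Eif3e (−0.073) and Rps6kb1 (−0.059) with PF. Rps6kb1 had 0.030 with vehicle. Over all members tested, 1 went from a called fall to a called rise between the genotypes with vehicle (Rpl13) and 2 with PF. The cause was not tested.

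Leaving out 1 library gave 0 to 20 higher (1.18% to 14.9%) and 0 to 6 lower (1.99% to 14.8%) with PF in WT (median −0.022 to 0.19), 0 to 9 higher (0.0275% to 1.22%) and 0 to 1 lower (0.0183% to 1.38%) for the difference between the responses (median 0.085 to 0.24), a median of −0.40 to −0.23 between the genotypes with vehicle and 0 to 1 higher with PF (18.8% to 25.9%). The column numbers were not taken as pairs. With group means taken out, same-numbered libraries of different groups had correlations of −0.18 to 0.32. Libraries with different numbers were not compared, so these values cannot settle whether the numbers pair the libraries. A replicate block on the column numbers gave 10 higher with PF in WT (8.21%) and 1 higher between the genotypes with PF (24.9%).

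Without the 100 most abundant other genes the share of counts was 6.02%, 6.41%, 5.04% and 4.81% in WT vehicle, WT PF, AMPKβ1-/- vehicle and AMPKβ1-/- PF libraries, and without the 5 most abundant members 3.34%, 3.67%, 3.04% and 2.91%. The median level was 364 CPM per kb of the longest transcript and 604 per kb of the median protein-coding transcript, a choice made after seeing the data. A pyrimidine run within 20 bases of the start was found in 76.3% of members, beside 48.2% of all genes. Members at low levels, such as Rpl5, Rpl12, Rps12, Rps27 and Rps4l, are limited by depth and by shared reads.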
